A study of Homo sapiens with 2 samples.

Results

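Broad shared peaks are stretches of open chromatin that were called at least 1500 bp wide in both of the cell lines studied. The members were the J76 peaks on chromosomes 1 to 22 and X that were at least 1500 bp wide and overlapped a 293T peak that was also at least 1500 bp wide. There were 1358 of them among 58730 J76 and 84951 293T peaks, and each had a 293T partner of its own. The widths in both lists chose the members, so widths and peak strength are given below as a description. Positions, genes and promoter sequence were not used by the rule and are set against 26554 shared pairs in which every peak was under 1500 bp, called narrow pairs below.

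J76, which the labels describe as acute T-lymphoblastic leukemia cells, was set against 293T, a human embryonic kidney line that the sample label writes as T293. ATAC-seq was run on both, a method in which the Tn5 transposase cuts accessible DNA and inserts sequencing adapters at the cut. The laboratory made its own Tn5, and each reaction held 50000 cells lysed in a mild detergent, with no treatment named in the labels for either line. Each line gave 1 library. Differences between J76 and 293T are therefore values of a library each, with no replicates and no test.

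In human cells, wide stretches of open chromatin are common at gene promoters inside CpG islands, sequences rich in CG dinucleotides that stay unmethylated and keep nucleosomes away from the transcription start. Such promoters often fire in both directions, and several nearby start sites may share a single open region. Enhancers, the other large class of open sites, tend to be narrower and to differ more between cell types.

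The promoters of 4 of the widest pairs show the kind of sequence that lay under these peaks. Each line below gives the 250 bases before a start site, read 5′ to 3′ on the strand of the gene, from the RefSeq promoter table of GRCh38.p14. Capitals mark the GC box (GGGCGG), the CCAAT box (CCAAT) and the TATA box (TATAAA), each searched on both strands.
SMARCA2 promoter, chr9:2015097-2015346, plus strand: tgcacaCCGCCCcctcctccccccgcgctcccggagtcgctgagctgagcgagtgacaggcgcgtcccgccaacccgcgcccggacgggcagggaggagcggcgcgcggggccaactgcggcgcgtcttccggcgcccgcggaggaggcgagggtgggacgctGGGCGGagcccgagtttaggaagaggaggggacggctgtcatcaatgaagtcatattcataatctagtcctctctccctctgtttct
CPEB2 promoter, chr4:15002231-15002480, plus strand: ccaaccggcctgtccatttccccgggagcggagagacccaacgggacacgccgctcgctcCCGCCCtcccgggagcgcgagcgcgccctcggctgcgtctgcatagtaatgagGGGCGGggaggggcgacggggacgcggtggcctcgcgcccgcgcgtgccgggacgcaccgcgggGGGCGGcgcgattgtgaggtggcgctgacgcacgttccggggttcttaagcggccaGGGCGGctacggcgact
SINHCAF promoter, chr12:31326151-31326400, minus strand: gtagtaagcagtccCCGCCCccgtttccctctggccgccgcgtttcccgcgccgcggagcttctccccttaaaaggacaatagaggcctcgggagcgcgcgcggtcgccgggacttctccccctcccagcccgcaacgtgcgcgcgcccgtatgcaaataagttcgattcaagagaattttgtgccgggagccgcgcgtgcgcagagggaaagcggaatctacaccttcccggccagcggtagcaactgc
H2AC18 promoter, chr1:149842751-149843000, minus strand: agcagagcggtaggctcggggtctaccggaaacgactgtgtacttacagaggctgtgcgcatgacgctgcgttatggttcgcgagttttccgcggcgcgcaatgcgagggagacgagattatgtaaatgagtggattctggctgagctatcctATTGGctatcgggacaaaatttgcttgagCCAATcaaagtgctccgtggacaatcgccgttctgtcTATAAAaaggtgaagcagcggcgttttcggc

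SMARCA2 encodes an ATPase of the BAF chromatin remodelling complex, CPEB2 an RNA-binding protein of the cytoplasmic polyadenylation family, SINHCAF a subunit of the SIN3 histone deacetylase complex, and H2AC18 a replication-dependent histone H2A. The SMARCA2 promoter held 2 GC boxes in its 250 bases and that of CPEB2 held 4. The H2AC18 promoter differed from the other 3: it held no GC box, 2 CCAAT boxes and 1 TATA box, and its GC content was 52.8%, against 74.8% for CPEB2. A match is a description of the letters and not evidence that a factor was bound.

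The next promoters belong to pairs among those with the widths furthest apart between the lines, and are shown for that contrast. SAMD4A, an RNA-binding protein of the Smaug family, and SCHIP1 were wider in 293T.
SAMD4A promoter, chr14:54566878-54567127, plus strand: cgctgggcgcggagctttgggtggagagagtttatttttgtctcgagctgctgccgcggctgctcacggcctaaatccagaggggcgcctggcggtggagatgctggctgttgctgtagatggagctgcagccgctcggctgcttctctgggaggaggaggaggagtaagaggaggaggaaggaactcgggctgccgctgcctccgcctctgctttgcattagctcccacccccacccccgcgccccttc
SCHIP1 promoter, chr3:159763432-159763681, plus strand: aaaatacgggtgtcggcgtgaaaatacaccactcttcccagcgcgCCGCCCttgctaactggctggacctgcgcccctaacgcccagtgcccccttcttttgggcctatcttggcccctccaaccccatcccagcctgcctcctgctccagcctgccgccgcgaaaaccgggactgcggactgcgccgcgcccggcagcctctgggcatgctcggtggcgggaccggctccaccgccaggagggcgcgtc

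ZCCHC2 and POU2F1, which encodes the transcription factor OCT1, were wider in J76.
ZCCHC2 promoter, chr18:62522775-62523024, plus strand: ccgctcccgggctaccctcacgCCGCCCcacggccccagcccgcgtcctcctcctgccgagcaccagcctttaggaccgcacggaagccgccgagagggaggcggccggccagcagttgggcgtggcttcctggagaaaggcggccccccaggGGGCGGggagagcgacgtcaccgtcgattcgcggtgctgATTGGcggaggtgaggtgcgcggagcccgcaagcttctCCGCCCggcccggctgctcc
POU2F1 promoter, chr1:167220635-167220884, plus strand: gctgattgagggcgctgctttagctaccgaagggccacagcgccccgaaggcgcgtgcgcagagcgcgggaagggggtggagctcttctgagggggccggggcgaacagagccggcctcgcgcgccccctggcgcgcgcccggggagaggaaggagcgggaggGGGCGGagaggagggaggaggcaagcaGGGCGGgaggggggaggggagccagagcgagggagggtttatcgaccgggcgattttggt

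The SAMD4A promoter held none of the 3 boxes, and its ratio of observed to expected CpG was 0.62. The ZCCHC2 promoter held 3 GC boxes and 1 CCAAT box, with a ratio of 0.87. The ratio was 0.91 for POU2F1 and 0.82 for SCHIP1.

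The broad members were a small share of each list. J76 had 1888 peaks of at least 1500 bp, or 3.21% of its list, and 293T had 3864, or 4.55%. The members made up 71.9% of the broad J76 peaks and 35.1% of the broad 293T peaks. A further 424 broad J76 peaks overlapped only narrower 293T peaks, and 106 overlapped none. Of the broad 293T peaks, 1988 overlapped only narrower J76 peaks and 518 overlapped none. The members covered 2433 kb in J76 and 2594 kb in 293T.

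The width of a member in J76 was a median 1713.5 bp, with a middle range of 1590 to 1910 bp and a maximum of 3078 bp. In 293T the median was 1840.5 bp, the middle range 1677 to 2067 bp and the maximum 3827 bp. Most members therefore lay close above the threshold. At the edge of the set, SFXN5 measured 1537 bp in J76 and 1500 bp in 293T, and ANK2 measured 1500 bp in J76 and 1864 bp in 293T. Also just inside, chr9:125745935-125747434, in PBX3, measured 1500 bp in J76 and 1694 bp in 293T. Just outside the set were TMEM9B, at 1592 bp in J76 and 1499 bp in 293T, the MRPL36 and NDUFS6 pair, at 1499 bp in J76 and 2481 bp in 293T, and the NUP43 and PCMT1 pair, at 1499 bp in J76 and 1642 bp in 293T.

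Widths in J76 and 293T went together. Across the 1358 pairs, the width in J76 and the width in 293T had a Spearman rho of 0.54 and a Pearson r of 0.56, given as a description because both were cut at the same threshold. The SMARCA2 pair, chr9:2014716-2017789 in J76, measured 3074 bp in J76 and 3285 bp in 293T. CPEB2, at chr4:15001433-15004414, measured 2982 bp in J76 and 3827 bp in 293T, the widest 293T peak among the members. SINHCAF measured 2971 bp in J76 and 2994 bp in 293T, a near match. CDK13, a kinase of the RNA polymerase II tail, measured 2873 bp in J76 and 2823 bp in 293T. NR3C1, the glucocorticoid receptor, was wider in J76, at 3041 bp against 2617 bp in 293T. PPP3CA, the catalytic subunit of calcineurin, leaned the other way, at 2592 bp in J76 and 3281 bp in 293T.

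The rest of the 20 widest pairs at protein-coding genes held genes of varied function. KLF10, a zinc finger factor induced by TGF-beta, measured 2719 bp in J76 and 2859 bp in 293T. SP3, which binds GC boxes, measured 2568 bp in J76 and 2570 bp in 293T. RBPJ, the DNA-binding partner of Notch, measured 2506 bp in J76 and 2689 bp in 293T. SAP30, a further SIN3 complex subunit, measured 2496 bp in J76 and 2869 bp in 293T. TOB1, an antiproliferative factor, measured 2511 bp in J76 and 2595 bp in 293T. VIM, which encodes the filament protein vimentin, measured 2692 bp in J76 and 2583 bp in 293T. HNRNPF, a splicing regulator, measured 2882 bp in J76 and 2413 bp in 293T. DIPK2A, SCAF11, SPRED2 and ARHGAP21 completed this group, apart from the 3 histone pairs described with their gene list.

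Peaks were slightly wider in 293T. The log2 ratio of J76 width to 293T width had a median of -0.06, a middle range of -0.19 to 0.01 and extremes of -1.03 and 0.85. The 293T peak was the wider in 948 pairs, or 69.8% (95% Wilson interval, 67.3 to 72.2%), the J76 peak in 406, and 4 pairs had equal widths. Intervals here and below cover counting error only. In narrow pairs the median log2 ratio was -0.13 and the 293T peak was the wider in 63.7%. The depth of the libraries is unknown, and its part in peak width was not tested.

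Few members differed strongly in width. Of the 1358 pairs, 29 differed by at least 1.5-fold, 2.14% of them, with 8 wider in J76 and 21 wider in 293T. In narrow pairs 8763 of 26554, or 33%, differed by as much, and in narrow pairs at a gene start 1701 of 8211, or 20.7%. The floor of 1500 bp on both widths leaves members less room to differ, so nothing is read from the gap between these shares. Both edges lay within 100 bp of each other in 518 members, or 38.1%, and in 42.2% of narrow pairs. The summits lay within 100 bp in 69.9% of members and in 84.0% of narrow pairs, with median gaps of 36 bp and 24 bp.

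**Figure D1:**
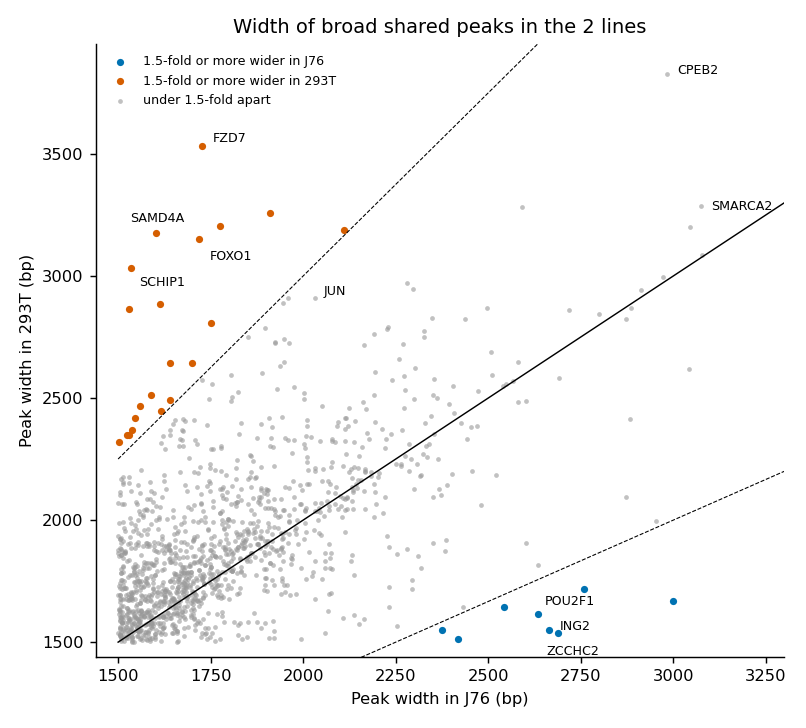
Peak width in J76 (horizontal, bp) against peak width in 293T (vertical, bp) for the 1358 broad shared pairs, with 1 point per pair, equality as the solid line and a 1.5-fold difference as the dashed lines. The 8 blue pairs were at least 1.5-fold wider in J76 and the 21 orange pairs at least 1.5-fold wider in 293T, while the other points lie around and mostly above equality.

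Among the pairs wider in 293T, FZD7, a Wnt receptor, had the lowest ratio: its peak measured 1727 bp in J76 and 3533 bp in 293T, which was 2.05-fold wider in 293T. SAMD4A measured 1601 bp in J76 and 3175 bp in 293T. SCHIP1 measured 1536 bp in J76 and 3032 bp in 293T. PCSK5, a proprotein convertase, measured 1530 bp in J76 and 2866 bp in 293T. FOXO1, a forkhead factor that responds to insulin signalling, measured 1718 bp in J76 and 3153 bp in 293T. CITED2, a partner of the CBP and p300 coactivators, measured 1614 bp in J76 and 2884 bp in 293T. PPM1L, a protein phosphatase, measured 1776 bp in J76 and 3206 bp in 293T, and ABTB2 1752 bp in J76 and 2807 bp in 293T. A pair inside FOXP2, chr7:114084824-114086732, measured 1909 bp in J76 and 3258 bp in 293T. No protein-coding start listed in the promoter table lay inside it or within 1 kb of either summit, and unlisted starts were not searched.

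Among the pairs wider in J76 at protein-coding genes, ZCCHC2 had the highest ratio. It measured 2687 bp in J76 and 1536 bp in 293T, or 1.75-fold wider in J76. ING2, which binds methylated histone H3, measured 2665 bp in J76 and 1551 bp in 293T. POU2F1 measured 2633 bp in J76 and 1615 bp in 293T. PTMA, the nuclear protein prothymosin alpha, measured 2542 bp in J76 and 1644 bp in 293T. APOLD1 measured 2374 bp in J76 and 1549 bp in 293T. TLE4, a corepressor, measured 2432 bp in J76 and 1644 bp in 293T. ARID1B, a BAF complex subunit, measured 2954 bp in J76 and 1998 bp in 293T, and like TLE4 fell just short of 1.5-fold. The largest ratio of all, 1.80-fold, was at chr18:107805-110803, which overlaps the pseudogene ROCK1P1 and a long noncoding RNA and measured 2999 bp in J76 and 1667 bp in 293T.

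Broad shared peaks lay mostly at gene starts. The J76 summit was within 1 kb of a protein-coding gene start in 1180 of 1358 members, or 86.9% (85.0 to 88.6%), against 8211 of 26554 narrow pairs, or 30.9% (30.4 to 31.5%). The 293T summit gave 87.0% of members and 31.0% of narrow pairs. A start lay anywhere inside the pair in 89.5% of members and in 29.0% of narrow pairs. For genes with no entry in the promoter table, 4159 of 19970, both gene ends were counted, since the gene table gives no strand.

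The share at gene starts climbed with width and then levelled off. When all shared pairs were binned by the smaller of their widths, 10.3% of the pairs under 500 bp lay at a start, 57.6% of those of 500 to 999 bp and 85.6% of those of 1000 to 1499 bp. Within the broad set it was 87.7% for 1167 pairs of 1500 to 1999 bp and 81.7% for 191 pairs of 2000 bp and over. The intervals of the last 3 bins overlapped, at 84.6 to 86.5%, 85.7 to 89.5% and 75.6 to 86.5%, so the threshold of 1500 bp marked no step in this measure.

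Starts on both strands were commoner at the broad pairs. Among pairs at a gene start, the same window of 1 kb around the J76 summit held starts on both strands, long noncoding RNA included, in 406 of 1180 members, or 34.4% (31.8 to 37.2%), against 1574 of 8211 narrow pairs, or 19.2% (18.3 to 20.04%). By width bin the share was 10.7% under 500 bp, 16.7% at 500 to 999 bp, 28.1% at 1000 to 1499 bp, 34.7% at 1500 to 1999 bp and 32.7% from 2000 bp. A transcript with the -DT suffix, the name RefSeq gives to divergent transcripts, started in that window in 5.93% of members and 2.63% of narrow pairs. Starts on both strands were read from the promoter table alone, so genes known only by their ends could not count. That table has no entries for chromosome 8, where 60 members and 251 narrow pairs at a gene start counted as lacking both strands. Starts of 2 or more protein-coding genes lay inside 235 of the 1180 members, or 19.9%, and 10.2% of the narrow pairs at a start, a measure that a wider peak can raise by its width alone. Of all members, 979 held 1 protein-coding gene, 222 held 2 and 14 held 3 or more. The 14 included the head-to-head pair of the mitochondrial chaperones HSPD1 and HSPE1, at 1895 bp in J76 and 1870 bp in 293T.

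**Figure D2:**
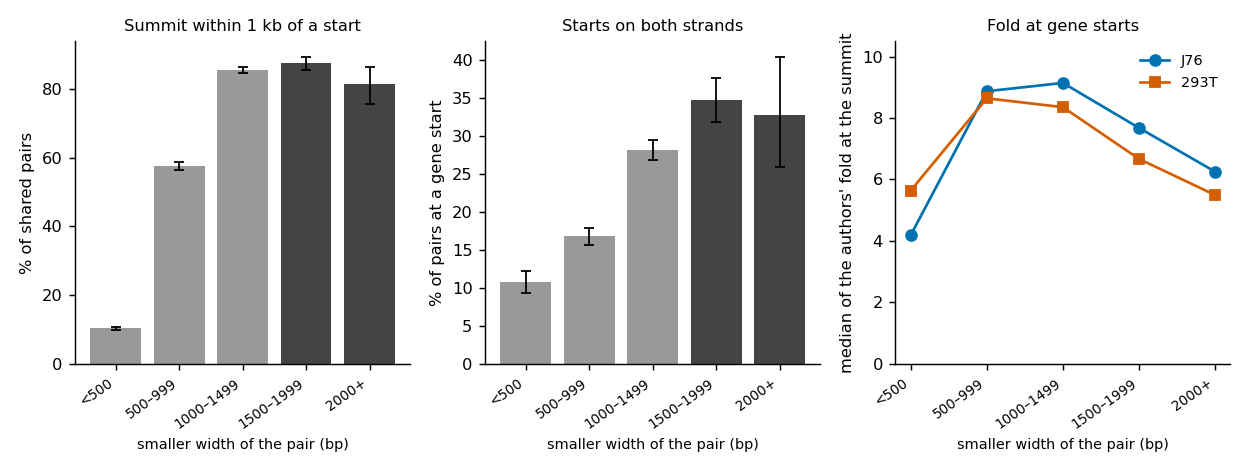
Share of shared pairs whose J76 summit lay within 1 kb of a gene start, share of those with starts on both strands, and median of the authors' fold at the summit, by the smaller width of the pair; dark bars are broad pairs and error bars are 95% Wilson intervals. The share at gene starts reaches 85.6% at 1000 to 1499 bp and 87.7% at 1500 to 1999 bp, while the median fold is highest at 1000 to 1499 bp in J76 and at 500 to 999 bp in 293T and lower in the broad bins.

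Wide peaks were not the tallest. The fold column is the authors' enrichment over background at the summit, and it was read within each line only. At gene starts the median fold in J76 was 7.48 for members and 8.67 for narrow pairs, and in 293T it was 6.47 for members and 8.44 for narrow pairs. Among all members the fold and the width had a Spearman rho of -0.47 in J76 and -0.46 in 293T, as a description over 1358 pairs that share 1 library per line. The −log10 q went the other way, with medians at gene starts of 78.8 for members and 56.4 for narrow pairs in J76, and 70.5 and 53.8 in 293T. Over all pairs, regardless of gene starts, the order in J76 was turned, with a median fold of 7.36 for members and 5.95 for narrow pairs, while in 293T the medians were 6.40 and 6.47.

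Around a start, the open region reached farther into the gene than away from it. This was measured in 853 members in which the promoter table listed starts of 1 protein-coding gene, on 1 strand. Genes known only by their ends were not counted, and starts of noncoding genes were allowed. Of the 853, 580 held no other listed start. Distances were taken from the start site nearest the J76 summit. In J76 the peak extended a median 748 bp upstream and 960 bp downstream of the start, and in 293T 805 bp upstream and 1041 bp downstream. The downstream side was the longer in 62.4% of members in J76 (59.1 to 65.6%) and 63.2% in 293T, against 58.2% and 60.3% of 5499 narrow pairs at a gene start. The summit lay upstream of the start, at a median of -73 bp in J76 and -61 bp in 293T, and at -50 and -48 bp in narrow pairs. More than 1 start site of the same gene lay inside 24.9% of these members and 12.1% of the narrow pairs, a share that width alone can raise.

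Individual genes showed how lopsided a peak could be. SMARCA2 reached 631 bp upstream and 2442 bp downstream in J76, and 648 bp upstream and 2636 bp downstream in 293T. SINHCAF reached 2540 bp downstream in J76 and 2567 bp in 293T, and 430 bp upstream in J76 and 426 bp in 293T. VIM reached only 153 bp upstream in J76 and 142 bp in 293T, and 2538 bp downstream in J76 and 2440 bp in 293T. NR3C1, with 5 listed start sites, was lopsided the other way. It reached 2106 bp upstream and 934 bp downstream in J76, and 1843 bp upstream and 773 bp downstream in 293T. Its pair also holds the protein-coding gene LOC128966704.

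Where 293T was much the wider, the difference lay mostly on the side of the gene body. In 14 of these members the 293T peak was at least 1.5-fold wider. Their median reach downstream was 422 bp in J76 and 1439 bp in 293T, and upstream it was 1156.5 bp in J76 and 1463 bp in 293T. The downstream edge moved more than the upstream edge in 12 of the 14, or 85.7% (60.1 to 96.0%), against 53.8% of all 853, and the exceptions were DCLRE1A and PSME3IP1. FOXO1 reached 1095 bp downstream in J76 and 2682 bp in 293T. SCHIP1 reached 800 bp downstream in J76 and 2351 bp in 293T, and PCSK5 902 bp in J76 and 2194 bp in 293T. PPM1L reached 186 bp downstream in J76 and 1431 bp in 293T, and ABTB2 201 bp in J76 and 1331 bp in 293T. In J76 the median reach of the 14 was already shorter downstream than that of all 853, at 422 against 960 bp. Upstream it was longer, at 1156.5 against 748 bp. The pairs were picked by the ratio of the same widths and share 1 library per line. Both the size of the shift and the share of 12 in 14 are therefore descriptions, and nothing is read from the gap to 53.8%. Only 4 such pairs were wider in J76, and of these ZCCHC2 reached 2022 bp downstream in J76 and 779 bp in 293T.

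**Figure D3:**
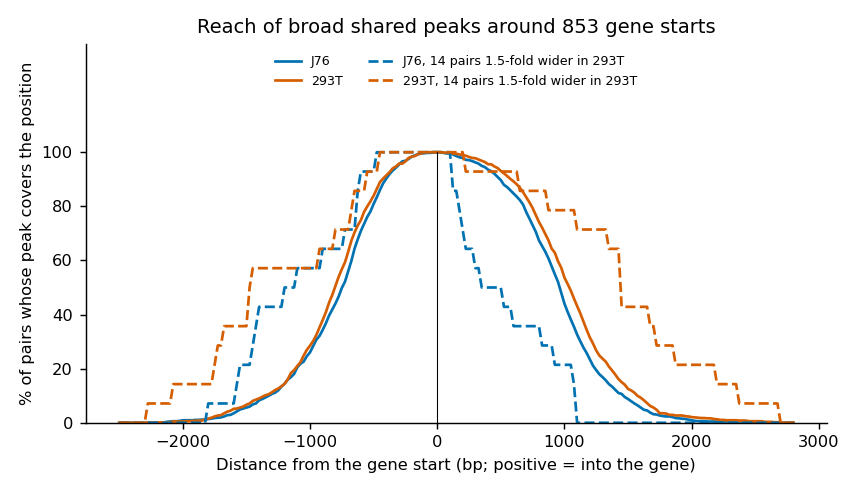
Share of 853 broad shared pairs whose peak covered each distance from the gene start (bp, positive into the gene), in J76 and in 293T; dashed lines are the 14 pairs at least 1.5-fold wider in 293T. The solid curves reach farther into the gene than away from it, and the dashed 293T curve stands apart from the dashed J76 curve mainly on the gene side, where the medians were 1439 and 422 bp.

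A start in a broad shared peak was found for 1456 of 19970 protein-coding genes, or 7.29%. Of these, 223 had no entry in the promoter table and were counted by a gene end, which may not be the start. A further 8021 genes, 40.2%, had a start in narrow pairs only, so 15.4% of the 9477 genes with a start in either kind of pair were at a broad one. Genes at broad pairs were longer: their median length was 49.6 kb, against 28.3 kb for genes at narrow pairs and 24.2 kb for all protein-coding genes. Each gene list below is described by its count beside those shares, with no test, and genes that share a pair are not independent. The lists were chosen with earlier results of these data known, so each share depends on which genes were listed. A width given for a listed gene is that of its pair, which can hold another gene too. This was so for HNRNPA2B1 with CBX3, EIF5B with TXNDC9, MCM7 with AP4M1 and MRPL40 with HIRA, among others.

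Chaperone genes were often at broad pairs. Of 22 heat shock and chaperone genes, 10 had a start in a member, or 45.5% (26.9 to 65.3%), and 16 had a start in a shared pair of either kind. HSP90AB1, the constitutive cytosolic HSP90, measured 1879 bp in J76 and 1995 bp in 293T. HSPH1, a cochaperone of HSP70, measured 1926 bp in J76 and 1872 bp in 293T. HSPA8, the constitutive HSP70, measured 1705 bp in J76 and 1593 bp in 293T. HSP90B1, HSP90AA1, HSPA4, DNAJA1 and TCP1 were the others, beside HSPD1 and HSPE1.

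RNA-processing and translation genes had similar shares. Of 24 splicing factors, 10 were at broad pairs, or 41.7% (24.5 to 61.2%), of 20 in any shared pair. HNRNPA2B1, which packages nascent RNA, measured 2457 bp in J76 and 2202 bp in 293T. U2AF2, which binds the polypyrimidine tract, measured 1994 bp in J76 and 2064 bp in 293T. HNRNPH1 measured 1962 bp in J76 and 1998 bp in 293T, and the other members of the list were HNRNPA1, HNRNPK, HNRNPD, SRSF1, SRSF2, SRSF6 and SRSF7. Of 20 translation factors, 8 were at broad pairs, or 40%, of 18 in any shared pair. PABPC1, the poly(A)-binding protein, measured 2159 bp in J76 and 2300 bp in 293T. EIF5B, which joins the ribosomal subunits, measured 2085 bp in J76 and 2109 bp in 293T, and EIF4G2, a relative of the scaffold EIF4G, measured 1898 bp in J76 and 1858 bp in 293T.

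Ribosomal protein genes, which are also used in every cell, were seldom broad. Of 80 cytosolic ribosomal protein genes, 71 had a start in a shared pair but only RPL7 and RPS12 in a broad one, or 2.5% (0.688 to 8.66%). RPL7 measured 2066 bp in J76 and 2158 bp in 293T, in a pair that also holds the start of RDH10. RPS12 measured 1941 bp in J76 and 1696 bp in 293T. Of 77 mitochondrial ribosomal protein genes 3 were at broad pairs, 3.90%, and of 48 proteasome subunit genes 2, or 4.17%, namely PSME4 and PSMA7. By the smaller width of the pair MRPL40 was the widest of these, at 2135 bp in J76 and 2045 bp in 293T. Of 18 small nucleolar RNA host and nuclear noncoding RNA genes 0 were at a broad pair (upper limit 17.6%), although 12 had a start in a narrow one.

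The replication-dependent histone genes, which are short, lack introns and lie in clusters, were frequent too. Of 74 genes 21 were at broad pairs, or 28.4% (19.4 to 39.5%), and 36 were in a shared pair of either kind. The 21 genes lay in 12 pairs, and 8 of these held 2 or more histone genes, with 11 genes on chromosome 1, 9 on chromosome 6 and 1 elsewhere. H3C14 and H2AC18 shared a pair of 2912 bp in J76 and 2942 bp in 293T. H2AC19 and H3C15 shared a pair of 2886 bp in J76 and 2870 bp in 293T. These pairs are near-identical copies of each other on chromosome 1, and reads that fit both cannot be assigned with certainty. H1-4 and H2BC5 shared a pair of 2437 bp in J76 and 2824 bp in 293T. The pair of H2BC21, H2AC20 and H2AC21 differed between the lines, at 2759 bp in J76 and 1716 bp in 293T.

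Chromatin regulators stood at 8 of 28, or 28.6%, of 24 in any shared pair. KMT2A, a histone H3 lysine methyltransferase rearranged in some leukemias, measured 2470 bp in J76 and 2386 bp in 293T. CHD1, a remodeller, measured 2071 bp in J76 and 2057 bp in 293T. EZH2, the Polycomb methyltransferase, measured 1833 bp in J76 and 1896 bp in 293T. CTCF, SETD2, CHD4, HDAC2 and ASXL1 were the other members.

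Immediate early genes, which respond within minutes to growth signals, stood at 5 of 25, or 20%, of 19 in any shared pair. JUN, a subunit of AP-1, measured 2031 bp in J76 and 2909 bp in 293T, and its peak reached 1263 bp downstream of the start in J76 and 2446 bp in 293T. BTG1, an antiproliferative gene, measured 1974 bp in J76 and 2547 bp in 293T. IER5 measured 1674 bp in J76 and 2303 bp in 293T. EGR1, a zinc finger factor, was nearly equal, at 1977 bp in J76 and 1958 bp in 293T. KLF10 was the fifth.

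Genes named for the T lineage were present in the broad shared set too. Of 21 T lineage factors, 5 were at broad pairs, or 23.8% (10.6 to 45.1%), of 11 in any shared pair. GATA3, a zinc finger factor of T cell development, measured 1987 bp in J76 and 1902 bp in 293T. SATB1, a chromatin organiser of thymocytes, measured 1667 bp in J76 and 2196 bp in 293T. MYB measured 1591 bp in J76 and 1558 bp in 293T, and TOX 1590 bp in J76 and 1603 bp in 293T. TCF12 measured 1553 bp in J76 and 2001 bp in 293T. PLCG1 alone represented the 21 genes for T cell receptor signalling and surface proteins, at 1600 bp in J76 and 1522 bp in 293T, and only 3 were in any shared pair.

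As shares of all their genes, lists of developmental regulators lay near the 7.29% of all protein-coding genes. FOXD1, a factor of the kidney stroma, was the sole member among 18 kidney developmental regulators, at 1725 bp in J76 and 2071 bp in 293T. Among 52 forkhead genes, FOXD1, FOXO1, FOXD2 and FOXP1 were at broad pairs, or 7.69% (3.03 to 18.2%), of 16 in any shared pair. Of 36 other homeobox and neural regulators, POU3F2, ZIC2 and IRX3 were members, or 8.33% (2.87 to 21.8%), of 5 in any shared pair. POU3F2 measured 1946 bp in J76 and 2890 bp in 293T, and ZIC2 leaned the other way, at 2311 bp in J76 and 1854 bp in 293T. At broad pairs there were 0 of 39 HOX genes, which allows a share of up to 8.97%, 0 of 19 YAP/TEAD pathway genes, up to 16.8%, and 0 of 392 olfactory receptor genes, up to 0.970%. Most genes of these lists were in no shared pair. Among those in a shared pair, 60% of 5 other homeobox and neural regulators, 25% of 16 forkhead and 25% of 4 kidney genes were at broad ones. The share was 0% of 7 HOX and of 5 YAP/TEAD genes, against 15.4% over all genes.

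Of the remaining lists, zinc finger genes with a ZNF symbol stood at 24 of 517, or 4.64% (3.14 to 6.81%), with 334 in a shared pair of either kind. By the smaller width of the pair ZNF367 was the widest of them, at 2307 bp in J76 and 2231 bp in 293T. DNA replication and cell cycle genes stood at 3 of 20, or 15% (5.24 to 36.0%), namely MCM7, MCM4 and PCNA. All 20 had a start in a shared pair, so their share of genes in shared pairs, 15%, was close to the 15.4% over all genes. MCM7 measured 1756 bp in J76 and 1870 bp in 293T. The list of ubiquitin genes and E2 enzymes, which also holds cullin genes, stood at 3 of 20 too, of 14 in any shared pair. The 3 were UBE2D3, at 2002 bp in J76 and 1921 bp in 293T, and the cullin genes CUL1 and CUL3. At broad pairs there were 0 of 5 B cell, 5 myeloid and 5 hepatocyte marker genes, which allows a share of up to 43.4% for each list, and 0 of 7 nephron marker genes, up to 35.4%.

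**Figure D4:**
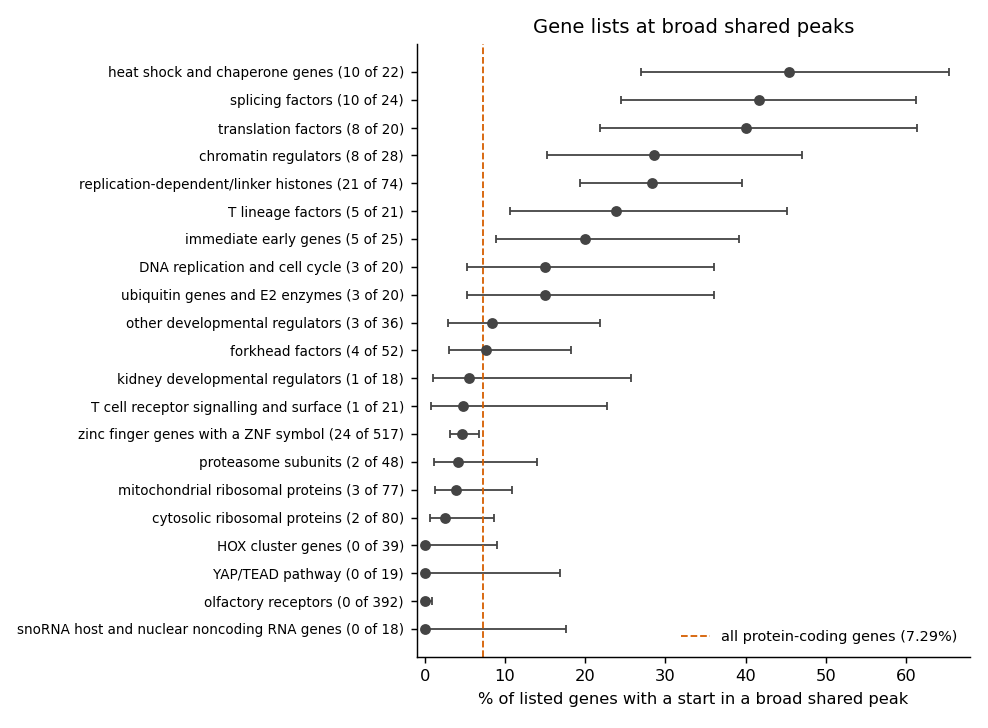
Percent of the genes of each list of 15 genes or more with a start in a broad shared peak, with 95% Wilson intervals and counts in the labels; the dashed line is the 7.29% of all protein-coding genes. Heat shock and chaperone genes (45.5%), splicing factors (41.7%) and translation factors (40%) lie far right of the line, and cytosolic ribosomal proteins (2.5%) and ZNF genes (4.64%) lie left of it. Among genes in any shared pair these lists stood at 62.5%, 50%, 44.4%, 2.82% and 7.19%, in that order, against 15.4% over all genes. The lists were chosen with earlier results of these data known.

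As a check of the labels, 10 of 12 T cell marker genes had a peak within 1 kb of a start or end in J76 and 0 in 293T. Of 11 markers of kidney epithelium and 293T, 1 had such a peak in J76 and 5 in 293T. B cell markers had none in either line, myeloid markers 0 of 5 in J76 and 1 in 293T, and hepatocyte markers 3 of 5 in J76 and 2 in 293T. None of these markers was at a broad shared pair.

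Promoter sequence under the broad pairs was richer in CpG. The promoter table held 1721 entries of 300 bases, 250 before and 50 after the start, inside members, 8127 inside narrow pairs and 22131 in all. The median GC content was 68.3% at members, 66.3% at narrow pairs and 62.3% over all entries. The median ratio of observed to expected CpG was 0.89 at members, 0.85 at narrow pairs and 0.74 overall. A ratio of at least 0.6 together with a GC content of at least 50% was met by 91.9% of entries at members (90.5 to 93.1%), 87.7% at narrow pairs (87.0 to 88.4%) and 60.0% overall.

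Of the 10 motifs searched, each on both strands, the ETS site differed most in percentage points. Its letters, CCGGAAG, occurred in 14.8% of entries at members (13.2 to 16.5%), against 22.4% at narrow pairs (21.5 to 23.3%) and 12.8% over all entries. By width bin its share was 10.7% under 500 bp, 22.4% at 500 to 999 bp, 21.1% at 1000 to 1499 bp, 15.1% at 1500 to 1999 bp and 12.8% from 2000 bp. ETS factors are a large family that bind this core at many housekeeping promoters.

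The GC box was found in 78.6% of entries at members (76.6 to 80.4%), 74.5% at narrow pairs (73.6 to 75.5%) and 56.3% overall. The YY1 site was found in 1.34% at members (0.892 to 1.997%), 2.31% at narrow pairs (2.01 to 2.66%) and 1.18% overall. The intervals of members and narrow pairs overlapped for the NRF1 site, at 1.86% of entries at members (1.32 to 2.61%) and 2.72% at narrow pairs (2.39 to 3.10%). So did those of the cyclic AMP response element TGACGTCA, at 2.73% (2.06 to 3.61%) and 3.73% (3.34 to 4.16%). They overlapped for the CCAAT box too, at 36.4% of entries at members and 35.8% at narrow pairs. They also overlapped for the TATA box, at 4.76% and 4.49%, the E-box CACGTG, at 10.1% and 10.7%, the ZBTB33 site, at 1.16% and 1.06%, and the AP-1 site TGANTCA, at 3.08% and 3.21%. Several start sites of 1 gene can overlap in sequence, so entries are not independent.

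Broad promoters were unevenly spread over chromosomes. Of all broad and narrow pairs at a gene start, 12.6% of 9391 were broad. On chromosome 4 it was 98 of 338, or 29.0% (24.4 to 34.0%), and on chromosome 18 it was 22.2%. On chromosome 19 it was 10 of 740, or 1.35% (0.736 to 2.47%). Chromosomes 15, 16, 17, 19, 20 and 22 together had 110 of 2671, or 4.12%, against 15.9% on the other 17, where X was lowest at 6.62%, below the 6.86% of chromosome 20. The median smaller width of a pair at a start was 1156 bp on chromosome 4, 760.5 bp on chromosome 19 and 955 bp overall. Across the 22 chromosomes with promoter sequences, the broad share and the median promoter GC content had a Spearman rho of -0.49 and a Pearson r of -0.50, given as a description of chromosomes that share the same 2 libraries.

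The differences in gene length and in ETS sites were also seen without chromosome 19. Without it the median gene length was 50.2 kb at members and 29.9 kb at narrow pairs, and the share with an ETS site 14.8% and 21.8%. On chromosomes 15, 16, 17, 19, 20 and 22 by themselves, 18.01% of 161 entries at members (12.8 to 24.7%) and 25% of 2564 at narrow pairs (23.4 to 26.7%) held the ETS site. These intervals overlapped. The median gene length there was 34.8 kb at members and 22.4 kb at narrow pairs. These groups of chromosomes were chosen after their values were seen.

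**Figure D5:**
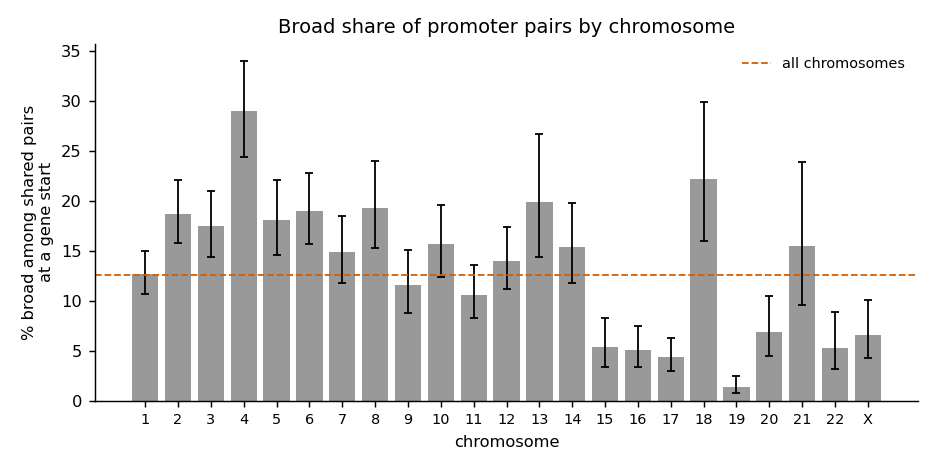
Percent of shared pairs at a gene start that were broad, on each chromosome, among broad and narrow pairs, with 95% Wilson intervals; the dashed line is the 12.6% over all chromosomes. Chromosome 4 is highest at 29.0% and chromosome 19 lowest at 1.35%.

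Away from protein-coding starts, 138 members, or 10.2%, had no start or end inside or within 1 kb of either summit. Of these, 33 held an annotated noncoding start and 51 lay inside the body of a protein-coding gene. MIR17HG, the host of a microRNA cluster that promotes proliferation, measured 2361 bp in J76 and 2500 bp in 293T. A pair that overlaps the long noncoding genes DLEU2 and DLEU1, chr13:50123924-50126316, measured 2393 bp in J76 and 2475 bp in 293T. Another pair over the same genes, chr13:50081070-50082880, measured 1811 bp in J76 and 1843 bp in 293T. Within gene bodies, chr8:100950360-100953157 in YWHAZ, a 14-3-3 adaptor, measured 2798 bp in J76 and 2842 bp in 293T, with its summit 1250 bp from a gene end. Only gene ends were known on chromosome 8, so whether this pair lay at a start of YWHAZ was not tested.

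Several of the widest distal members lay outside protein-coding genes. The widest J76 peak of the whole set, chr16:46398548-46401625, lay in pericentromeric sequence with no annotated gene and measured 3078 bp in J76 and 3085 bp in 293T, with folds of only 2.81 in J76 and 2.89 in 293T. A pair at chr7:56370490-56373092, over pseudogenes, measured 2603 bp in J76 and 2486 bp in 293T. On chromosome 21, 16 of the 32 members lay before 12 Mb, on and near the short arm, a region known to hold many repeats. Of these, 4 had widths of 2192 to 2326 bp in J76 and 2763 to 2789 bp in 293T, and another 4 had widths of 1622 to 1886 bp in J76 and 1558 to 1620 bp in 293T. Whether these pairs are copies of each other was not tested. Another 6 lay at or near the 45S ribosomal RNA genes, with folds of 1.63 to 1.97 in J76 and 1.66 to 2.25 in 293T. The widest of them, chr21:8432359-8434938, measured 2580 bp in J76 and 2647 bp in 293T. The treatment of reads that map to several places is not given in the sources.

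Small RNA genes were also found in members. Genes for transfer RNA lay in 21 members, or 1.55%, and in 147 narrow pairs, or 0.554%, and 34 of 443 transfer RNA genes were inside a member. MicroRNA genes lay in 24 members, or 1.77%, and 0.354% of narrow pairs. A wider peak can hold more genes by its width alone, and the shares were not corrected for it.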

How the data were processed

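ATAC-seq was measured in 1 library each of J76 and 293T. Per the submitters' processing notes, Bowtie2 and MACS2 were used. The sources used here give no versions, settings, duplicate removal or shift for the Tn5 cut. The authors deposited 1 narrowPeak list per library, holding an integer score, the fold enrichment at the summit (a linear ratio) and the p-value and q-value as −log10. The score and the p-value were not used. No read counts are given, so depth is unknown. No source used here names the genome build. Contig names are those of GRCh38, and positions are printed as GRCh38, counted from 1.

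Peaks were paired by at least 1 bp of overlap, and each member took the overlapping 293T peak of at least 1500 bp with the longest overlap. Genes came from RefSeq tables of GRCh38.p14: start sites for 15811 of 19970 protein-coding genes (79.2%), and both gene ends for the other 4159, which include all 714 on chromosome 8. A pair was at a gene start if its J76 summit lay within 1 kb. The members and the 25 gene lists were chosen with earlier results of these data known. Genes were named by rule: the 20 widest pairs at genes, the 10 highest and lowest width ratios, up to 3 genes per list, the 5 widest distal pairs and those next to the threshold. Names beyond these complete a count or were chosen after their values were seen. Intervals on shares are 95% Wilson intervals for counting error alone, and no test was run. Alternatives were other width thresholds, overlaps, distances to a start and q-value limits. Chromosome Y was not used, and unplaced contigs only as a count. Python 3.11.15, numpy 2.4.6, pandas 2.3.3 and scipy 1.17.1 were used, and the scripts were tested on simulated data.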

Additional observations from a re-analysis of the deposited data

Results flagged for a closer look

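Unplaced contigs, which no comparison above used, held 674 J76 and 528 293T peaks, of which 20 in J76 and 19 in 293T were at least 1500 bp wide. By the same rule they gave 14 broad shared pairs. They are given here because this count passed 3, the upper limit for an observed count of 0. No count of 0 was predicted, so no excess is read from it. Their genes were not analysed here.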

How the results depend on the processing

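The number of members, 1358, was 1348 with a reciprocal overlap of 50%, 1356 with a −log10 q of at least 10 in both lines and 1333 without chromosome X. It was 6693 at 1000 bp, 191 at 2000 bp and 882 when equally many of the widest peaks were taken from each list. The median log2 width ratio of J76 to 293T, -0.06, was -0.10 at 1000 bp, -0.029 at 2000 bp, -0.13 with equally many peaks and -0.082 with each width over the median of its list, and stayed below 0 in each. The share at gene starts, 86.9%, was 81.7% at 2000 bp, 79.8% within 500 bp, 90.6% within 2500 bp and 89.5% for a start anywhere inside the pair. The 25 gene lists together had 113 entries at members, 106 with a start within 1 kb of the summit and 441 at 1000 bp. The median fold of members minus that of narrow pairs was 1.41 in J76 and -0.07 in 293T. It turned to -0.23 in J76 and moved to -1.44 in 293T among pairs with a −log10 q of at least 10, and to -1.19 and -1.96 at gene starts. The restriction to gene starts, and leaving out chromosome 8 (1289 members) or the short arm of chromosome 21 (1342 members), were chosen after seeing the data, and the last 2 moved neither the width ratio nor the share at gene starts beyond their spread. The cause of these shifts was not tested. No paired analysis was possible because each line had 1 library, and no replicate was left out for the same reason. The lists give no depth, so its part in a missing or narrower peak was not tested.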
